A study of Mus musculus with 23 samples.

Results

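The subject here is how far left ventricle samples of mice differed among themselves in atrial transcripts. Within each genotype and age, the arrays were ranked by their signal for Myl7, the atrial myosin regulatory light chain, and the upper and lower arrays were called atrial-rich and atrial-poor. Of 23 arrays, 22 were placed, 11 in each class, with 3 rich and 3 poor arrays in WT_P20, Efnb1cKO_P20 and Efnb1cKO_P60 and 2 of each in WT_P60. The fifth WT_P60 array, replicate 3, lay in the middle of its group and belongs to neither class. Class members were thus chosen by the measured Myl7 signal, so the Myl7 difference between them is a description and supports nothing. What was tested is whether other genes varied with Myl7 among the same mice.

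Each array held the left ventricle of 1 male mouse, either wild type (WT) or lacking Efnb1, the gene of the membrane ligand ephrin-B1, in cardiomyocytes (Efnb1cKO). The mice were 20 days old (P20) or 60 days old (P60), shared a mixed S129/S4 × C57BL/6 background, and were fed chow under alternating light and dark without treatment. The labels do not name the Cre line or say how the ventricle was separated from the atria. The 4 groups held 6, 6, 5 and 6 mice, in the order WT_P20, Efnb1cKO_P20, WT_P60 and Efnb1cKO_P60.

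Atrial and ventricular cardiomyocytes build the same contractile apparatus from partly different parts. Atrial cells use Myl7 and Myl4 as their regulatory and essential myosin light chains, where ventricular cells use Myl2 and Myl3. They also make sarcolipin (Sln), a small membrane protein that inhibits the calcium pump SERCA, where ventricular cells rely on phospholamban (Pln), and they store atrial natriuretic peptide (Nppa) in granules. Adult ventricular cells make little of most of this atrial set, although Nppa stays measurable and rises when the ventricle is stressed. In a piece of tissue, more cells of a type and more RNA of its genes per cell cannot be told apart.

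Levels below are log2 signals scaled to the 75th percentile of each array, so a difference of 1 is a doubling of signal, and levels of different probes are not compared. A total of 58.05% to 62.52% of probes was well above background in the rich class and 59.14% to 62.18% in the poor class. That share, the 75th percentile of signal and the median spot signal did not differ detectably between classes (exact permutation within groups, two-sided, p = 0.394, 0.763 and 0.866 over 48000 permutations). The ventricular label held on every array: Myl2 lay between 17.78 and 18.10 in all 4 groups. Efnb1 lay between 11.61 and 12.35 in WT_P20, 11.37 and 11.80 in Efnb1cKO_P20, 11.18 and 11.43 in WT_P60, and 10.79 and 10.94 in Efnb1cKO_P60, so genotypes overlapped at P20 and not at P60. The rich and poor classes were uneven over the 3 slides, with 3 rich and 4 poor arrays on slide 1, 2 and 6 on slide 2, and 6 and 1 on slide 3.

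The Myl7 level, read by the only Myl7 probe of the array (A_51_P246345, chromosome 11 from 5796640 to 5796699 on mm9), spanned 7.52 log2 units over the 23 ventricles, a 183-fold range of signal. In WT_P20 the poor arrays stood at 8.41, 9.36 and 10.05 and the rich arrays at 12.86, 13.57 and 14.40. In Efnb1cKO_P20 they stood at 10.31, 11.85 and 12.51 against 12.83, 13.44 and 15.93. In WT_P60 the poor arrays had 10.03 and 11.79, the middle array 11.95, and the rich arrays 12.13 and 15.31. In Efnb1cKO_P60 the values were 10.83, 11.18 and 12.26 against 12.70, 13.33 and 14.03. A wide gap therefore separated the classes in WT_P20 only, while in the other groups the highest poor array came close to the lowest rich one. The highest poor array of Efnb1cKO_P20, at 12.51, exceeded the lowest rich array of WT_P60, at 12.13. The range within a group was 63.7-fold in WT_P20, 49.2-fold in Efnb1cKO_P20, 38.8-fold in WT_P60 and 9.18-fold in Efnb1cKO_P60. The mean was 13.68 ± 1.15 (SD, n = 11) in the rich and 10.78 ± 1.28 (SD, n = 11) in the poor class. Among all tested probes, Sln and Mybphl ranked 1 and 2 by their SD within groups, Hamp 4 and Myl7 5, and Sln spanned a 341-fold range over the 23 arrays. Mybphl and Hamp were each not well above background on 3 poor arrays, so their spread includes readings near background.

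**Figure D1:**
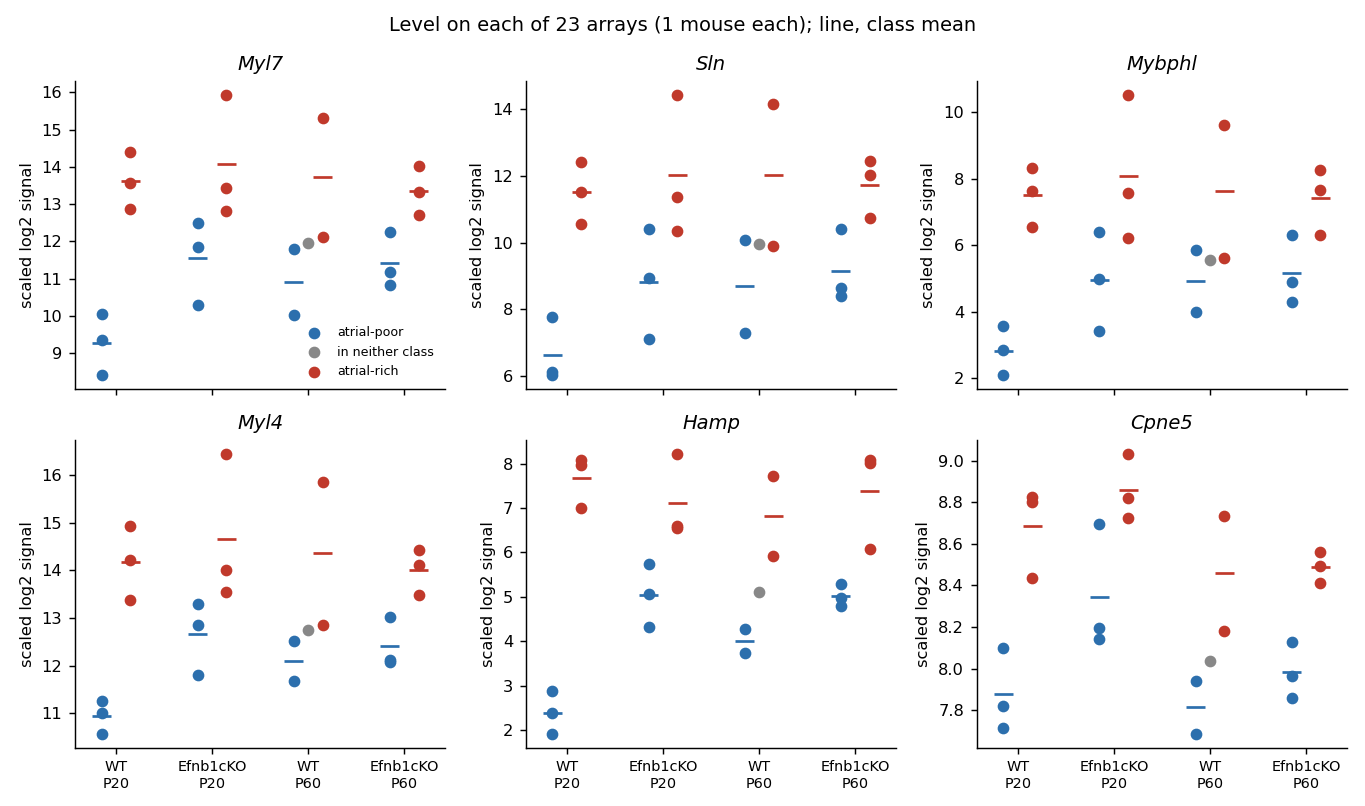
Scaled log2 signal of 6 genes on each of the 23 arrays, by genotype and age, with atrial-poor arrays in blue, atrial-rich arrays in red, the middle array in grey and a line at each class mean. Myl7 made the classes; Myl4, Hamp and Cpne5 separate them in all 4 groups, while single Sln and Mybphl points cross.

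The promoters of Myl7 and of the 4 atrial list genes that rose with it in the graded fit over 23 arrays and have a RefSeq entry (of 6 that rose) are shown, because their levels varied together. They are the 250 bases before the RefSeq start (GRCm38.p6), read 5′ to 3′ on the gene's strand, with GATAA or its reverse complement TTATC in capitals, the core that GATA factors of the heart bind. Myl7 lies on the minus strand at chr11:5898783-5899032, Mybphl on the plus strand at chr3:108364661-108364910 and Hamp on the minus strand at chr7:30944030-30944279. Myl4 lies on the plus strand at chr11:104550413-104550662 and Sbk3 on the minus strand at chr7:4970962-4971211.
Myl7: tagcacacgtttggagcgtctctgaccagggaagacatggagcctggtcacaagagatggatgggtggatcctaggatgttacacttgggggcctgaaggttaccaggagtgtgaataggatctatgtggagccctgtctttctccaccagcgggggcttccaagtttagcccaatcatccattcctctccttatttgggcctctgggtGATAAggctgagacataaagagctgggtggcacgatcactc
Mybphl: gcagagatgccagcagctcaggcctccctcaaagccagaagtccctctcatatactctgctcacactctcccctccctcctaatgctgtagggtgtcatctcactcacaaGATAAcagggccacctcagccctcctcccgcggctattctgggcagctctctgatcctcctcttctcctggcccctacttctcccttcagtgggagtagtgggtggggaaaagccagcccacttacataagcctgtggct
Hamp: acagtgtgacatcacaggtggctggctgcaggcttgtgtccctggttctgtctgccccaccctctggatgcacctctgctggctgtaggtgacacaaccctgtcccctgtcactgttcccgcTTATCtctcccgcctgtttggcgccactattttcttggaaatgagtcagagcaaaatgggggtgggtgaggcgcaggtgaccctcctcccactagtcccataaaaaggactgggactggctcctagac
Myl4: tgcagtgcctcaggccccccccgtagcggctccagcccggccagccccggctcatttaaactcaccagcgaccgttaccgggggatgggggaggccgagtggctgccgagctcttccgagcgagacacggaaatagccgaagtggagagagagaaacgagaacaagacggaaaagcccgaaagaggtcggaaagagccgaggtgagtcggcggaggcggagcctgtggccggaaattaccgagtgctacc
Sbk3: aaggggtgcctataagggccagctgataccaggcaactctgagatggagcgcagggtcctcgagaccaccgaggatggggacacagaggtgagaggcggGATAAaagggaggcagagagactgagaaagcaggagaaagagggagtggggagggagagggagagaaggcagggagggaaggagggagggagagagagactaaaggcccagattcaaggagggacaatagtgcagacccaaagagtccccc
The match lies from 41 to 37 bases before the start in Myl7, from 140 to 136 in Mybphl, from 128 to 124 in Hamp and from 151 to 147 in Sbk3, and the Myl4 window holds none. Of the 17 atrial list genes with an entry 8 hold at least 1 match, and over both strands 22.6% of 32851 mouse promoter windows of this length do. The T-box core AGGTGT or its reverse complement ACACCT, which does not overlap the other motif, was found in none of the 5 windows shown, in 2 of the 17 and in 11.8% of all windows. These matches are letters in a window and do not show binding.

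Atrial-rich ventricles had higher values for a small set of atrial transcripts, few of which passed the test, and differed little from atrial-poor ventricles in most other probes. Of 35717 probes tested besides Myl7, 6 differed by at least 2 log2 units, all 6 higher in the rich class: Sln, Mybphl, Hamp, both tested Myl4 probes and Fgf12. At a limma adjusted p under 0.05, only Hamp and Cpne5 passed, 2 probes or 0.0056% of those tested, both higher, and 945 probes had an unadjusted p under 0.05. The median difference over all tested probes was 0.0006, and 50.5% of them were higher in the rich class.

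Hamp encodes hepcidin, an iron-regulating peptide hormone made mainly in the liver and placed here on the atrial list. Its probe (A_52_P669922, chromosome 7 from 31727490 to 31727549 on mm9) ranged from 5.93 to 8.23 with a median of 7.72 in the rich class, and from 1.92 to 5.73 with a median of 4.33 in the poor class. Every rich array exceeded every poor array, across groups as well as within them. The class means were 7.29 ± 0.88 and 4.12 ± 1.25 (SD, n = 11 each), a difference of 3.17 (SE 0.415), or 9.01-fold, with a limma adjusted p of 0.0111. All 3 poor arrays of WT_P20, at 1.92, 2.38 and 2.87, were not well above background, while all other arrays were. With normexp background correction the difference was 1.46 (adjusted p = 0.00249), and in the authors' values it was 1.91 (adjusted p = 0.00158). The call was lost with the slide in the fit (limma adjusted p = 0.295), with the adipocyte covariate described with the marker lists (0.149), when Sln or Nppa ranked the arrays (2.60 with adjusted p = 0.431 and 1.42 with adjusted p = 0.402), and with the top 2 and bottom 2 arrays of each group (adjusted p = 0.13). A liver list, chosen after the Hamp values were seen, had no gene past the threshold: of its 8 genes 4 were tested, 2 higher and 2 lower, with differences from -0.09 to 0.30 and a median of -0.02. The mean level of these liver genes was 7.08 to 7.80 in the rich and 6.86 to 8.16 in the poor class.

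Cpne5 encodes copine-5, a calcium-dependent membrane-binding protein, and stood on the list of sinus node and conduction genes. Its probe (A_51_P124345, chromosome 17 from 29294874 to 29294933 on mm9) ranged from 8.18 to 9.03 with a median of 8.73 in the rich class and from 7.69 to 8.70 with a median of 7.96 in the poor class. Rich arrays were above poor arrays within each of the 4 groups, although the 2 classes overlapped across groups. The difference was small, 0.62 (SE 0.086), or 1.53-fold, with means of 8.64 ± 0.24 and 8.02 ± 0.28 (SD, n = 11 each) and a limma adjusted p of 0.0136. Of the 12 conduction genes tested 8 were higher and 4 lower, with a median of 0.04, and Cpne5 alone passed. The pacemaker channel gene Hcn4 differed by -0.01 (SE 0.088), and Cntn2, a cell adhesion gene of the Purkinje network named after its value was seen, by 0.26 (SE 0.08). With the slide in the fit, the difference was 0.58 for Cpne5 and 2.95 for Hamp. The limma adjusted p rose to 0.295 for both. Of 18 alternatives besides single arrays left out, 11 kept the Cpne5 call and 7 lost it. When Sln or Nppa ranked the arrays, the Cpne5 difference was 0.41 (adjusted p = 0.616) and 0.19 (adjusted p = 0.586). It was 0.60 (adjusted p = 0.176) with the replicate number as a block and 0.64 (adjusted p = 0.235) with the top 2 and bottom 2 arrays of each group. Without the 2 arrays of highest Myl7 it was 0.56 (adjusted p = 0.0997).

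Sarcolipin showed the largest difference of all, and it did not pass the threshold as a class difference. The Sln probe (A_52_P413395, chromosome 9 from 53701574 to 53701633 on mm9) ranged from 9.90 to 14.43 with a median of 11.53 in the rich class, and from 6.02 to 10.42 with a median of 8.40 in the poor class. Classes separated in WT_P20 and Efnb1cKO_P60. They crossed in Efnb1cKO_P20, where poor replicate 2 had 10.41 and rich replicate 5 had 10.34, and in WT_P60, where poor replicate 4 had 10.09 and rich replicate 1 had 9.90. The difference was 3.52 (SE 0.613), or 11.5-fold, with a limma adjusted p of 0.0766. Over the alternatives with all arrays kept the limma adjusted p ran from 0.0218 under normexp, where the difference was 3.22, to 0.742 with the slide in the fit and 1 with the adipocyte covariate. Besides normexp, it passed in the authors' values (adjusted p = 0.0262), and without WT_P60 replicate 1, Efnb1cKO_P20 replicate 5 or Efnb1cKO_P60 replicate 3 (adjusted p = 0.0202, 0.0433 and 0.0497).

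Mybphl, a heart relative of the thick-filament protein myosin-binding protein C, ranged from 5.63 to 10.51 with a median of 7.62 in the rich class and from 2.10 to 6.41 with a median of 4.29 in the poor class (A_51_P308912, chromosome 3 from 108178294 to 108178353 on mm9). The classes crossed on the same 2 pairs of arrays as Sln, and in Efnb1cKO_P60 poor replicate 3 and rich replicate 4 both read 6.31. The difference was 3.23 (SE 0.58), or 9.40-fold, with a limma adjusted p of 0.0929. It was 1.68 under normexp and 2.06 in the authors' values, and none of 17 such alternatives passed. Mybphl passed without WT_P60 replicate 1 or Efnb1cKO_P20 replicate 5 (limma adjusted p = 0.0202 and 0.0433). In 20 of 22 fits with 1 array left out it did not. Of the 11 poor arrays 8 were well above background for Mybphl.

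Myl4, the atrial essential light chain, ranged from 12.86 to 16.45 with a median of 14.11 in the rich class, and from 10.57 to 13.30 with a median of 12.07 in the poor class (A_55_P2107045, chromosome 11 from 104448441 to 104448500 on mm9). It put all 22 arrays in the same class as Myl7 did, and its classes did not overlap in any of the 4 groups. The difference was 2.27 (SE 0.384), or 4.84-fold, with a limma adjusted p of 0.0739, and the other tested Myl4 probe gave 2.32 (adjusted p = 0.0766). A_55_P2107045 passed under normexp (adjusted p = 0.0188) and in the authors' values (adjusted p = 0.0238). The other 16 of 18 such alternatives did not pass, with an adjusted p of 0.742 with the slide in the fit. With 1 array left out, 19 of 22 fits did not pass. Separation in all 4 groups with the rich class above was seen for 6 of 35717 probes, 0.0168%, and with the rich class below for 0. The 6 were Hamp, Cpne5, both Myl4 probes, Dkk3 and Zfp579, the last of which was chosen after its values were seen.

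**Figure D2:**
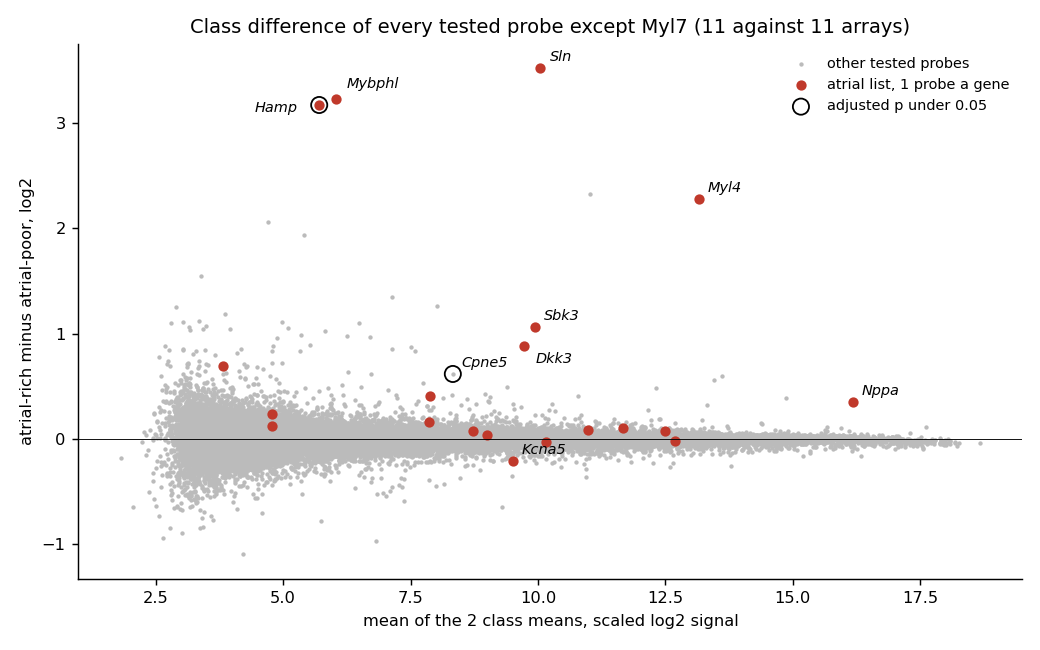
Rich-minus-poor log2 difference (vertical) against the mean of the class means (horizontal) for every tested probe except Myl7, with the atrial list in red and probes past the threshold circled. Sln, Mybphl, Hamp and Myl4 lie above 2, while Nppa, at 0.35, and Kcna5, at -0.21, stay near the bulk of probes.

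The remaining atrial genes differed far less. The list held 22 genes; Myl7 was used by the rule, Bmp10 was well above background on 1 of 23 arrays and was not tested, and of the other 20 genes 17 were higher and 3 lower in the rich class, with a median of 0.20. Only Hamp of these 20 passed the threshold. Sbk3 and Sbk2, a pair of muscle kinases, differed by 1.06 (SE 0.291) and 0.69 (SE 0.295), and Dkk3, a secreted protein of the Dickkopf family, by 0.88 (SE 0.194, limma adjusted p = 0.525). Stard10, a lipid-transfer protein, differed by 0.41 (SE 0.171).

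Nppa ranged from 14.80 to 17.19 with a median of 16.46 in the rich class and from 14.45 to 17.00 with a median of 16.11 in the poor class. The ranges overlapped almost entirely, and the difference was 0.35 (SE 0.203, limma adjusted p = 1). When Nppa ranked the arrays in place of Myl7, 14 of 22 arrays kept their class and 8 changed it. Under that ranking the difference was 1.42 for Hamp (limma adjusted p = 0.402), 0.19 for Cpne5 (adjusted p = 0.586), 2.04 for Sln and 1.28 for Myl4, none of them past the threshold, and 2 other probes passed, both lower. The natriuretic peptide list, Nppa included, gave no call among 10 tested genes, with a median of 0.02, and Nppb, the B-type peptide, differed by 0.03 (SE 0.181).

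Regulators and channels of the atrium were nearly level between the classes, and no gene among them passed the threshold. The transcription factors Tbx5, Nr2f2 and Nr2f1 differed by 0.09 (SE 0.072), 0.04 (SE 0.052) and -0.03 (SE 0.069). The potassium channel genes Kcnj3 and Kcnj5, which form the acetylcholine-gated channel, differed by 0.07 (SE 0.084) and 0.07 (SE 0.05), Kcnk3 by -0.02 (SE 0.052) and Kcna5 by -0.21 (SE 0.131). The gap junction gene Gja5 differed by 0.16 (SE 0.076), the calcium channel gene Cacna1d by 0.13 (SE 0.055) and Pam, the peptide-amidating enzyme of secretory granules, by 0.11 (SE 0.053). The direction of Nr2f2, Nr2f1, Tbx5, Kcnk3, Kcnj3 and Cacna1d turned under at least 1 alternative.

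No ventricular gene passed in either direction. Of 11 tested members of the ventricular list 6 were higher and 5 lower in the rich class, and all 11 differences lay between -0.05 and 0.11. Myl2, at 17.90 ± 0.09 in the rich and 17.95 ± 0.11 in the poor class (SD, n = 11 each), differed by -0.05 (SE 0.039), and Myl3 by -0.04 (SE 0.042). Among 12 tested myosin chains and kinases besides Myl7, Myl4 stood alone, with the others between -0.09 and 0.08, Myh6 at -0.04 (SE 0.05) and Myh7 at 0.003 (SE 0.077). Among 12 genes of SERCA and its regulators the median was -0.003, with the pumps Atp2a1 at -0.02 (SE 0.062) and Atp2a2 at -0.04 (SE 0.032) and Pln at -0.004 (SE 0.045) beside Sln at 3.52. Lists of retinoid genes, cardiac transcription factors, secretory granule genes, potassium channels, immediate early genes and Eph receptors with ephrins had medians between -0.002 and 0.07 and no call. The retinoic acid enzymes Aldh1a1 and Aldh1a2 differed by 0.09 and 0.11, and Cyp26b1, which degrades retinoic acid and is named after its value was seen, by -0.65 (SE 0.341). The transcription factors Nkx2-5 and Gata4 by 0.01 and 0.03, and Chgb, a granule protein, by 0.06. Kcnj2, the inward rectifier of the ventricle, differed by 0.02, the immediate early genes Fos and Fosb by 0.09 and 0.09, and the ephrins Efna1 and Efna2 by -0.03 and -0.01.

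A graded reading used all 23 arrays: each gene was fitted on the Myl7 level centred within its group, so that a slope of 1 means as many log2 units as Myl7 itself. In that limma fit 26 probes of 23 genes passed, 0.0728% of 35717, with 25 rising and 1 falling with Myl7. A total of 1293 probes had an unadjusted p under 0.05. The 25 include Gm12522, Fras1, Lppr5 and Ifltd1, which entered the test only with the rich arrays counted. The count and its direction are therefore partly a description. With probes above background on all 23 arrays 12 passed, 11 rising and 1 falling. Sln rose by 1.23 per unit (SE 0.0373, limma adjusted p = 9.77e-15), Mybphl by 1.13 (SE 0.0482, adjusted p = 2.96e-12) and Myl4 by 0.78 (SE 0.0251, adjusted p = 1.82e-14). Hamp rose by 0.89 (SE 0.112, adjusted p = 0.000451), Sbk3 by 0.39, Dkk3 by 0.29 and Cpne5 by 0.18. These 6 atrial genes and Cpne5 were joined by 16 genes that stood outside both lists. Under normexp the slopes of Mybphl and Hamp were 0.63 and 0.41, both still past the threshold, and that of Sln was 1.14.

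The genes outside those lists are named after their values were seen. Fgf12, an intracellular modulator of sodium channels, rose by 0.75 (SE 0.0762, limma adjusted p = 2.48e-05); it ranged from 4.13 to 8.44 in the rich and 2.80 to 4.86 in the poor class, and its slope was 0.30 under normexp. Tmem163, a zinc transporter, rose by 0.71 (SE 0.0745, adjusted p = 3.37e-05) and ranged from 5.05 to 9.28 against 3.48 to 5.82, with a slope of 0.39 under normexp. Mlana, a melanosome protein, rose on both of its probes, by 0.41 and 0.39. Cilp2, Cdo1, Sytl2, Col4a6 and Olfm1, well above background on all 22 classed arrays, rose by 0.10 to 0.39, and Retn, a fat-cell hormone of the adipocyte list, by 0.38 (adjusted p = 0.0209). The slopes of Ifltd1, Gm12522, Gsg1, Fras1, Lppr5 and Rab33a lay between 0.25 and 0.44, but these probes were dim: Gm12522 was well above background on 7 rich and 1 poor array, Fras1 on 6 and 1, Lppr5 on 8 and 3, Ifltd1 on 8 and 4, and Gsg1 and Rab33a on 11 and 7. Of these, Gm12522, Fras1, Lppr5 and Ifltd1 reached the minimum of 5 arrays above background only with the rich arrays counted, so their slopes are a description. Fgf12 was well above background on 11 rich and 6 poor arrays. Only Olfr1153 fell, by 0.11 per unit.

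**Figure D3:**
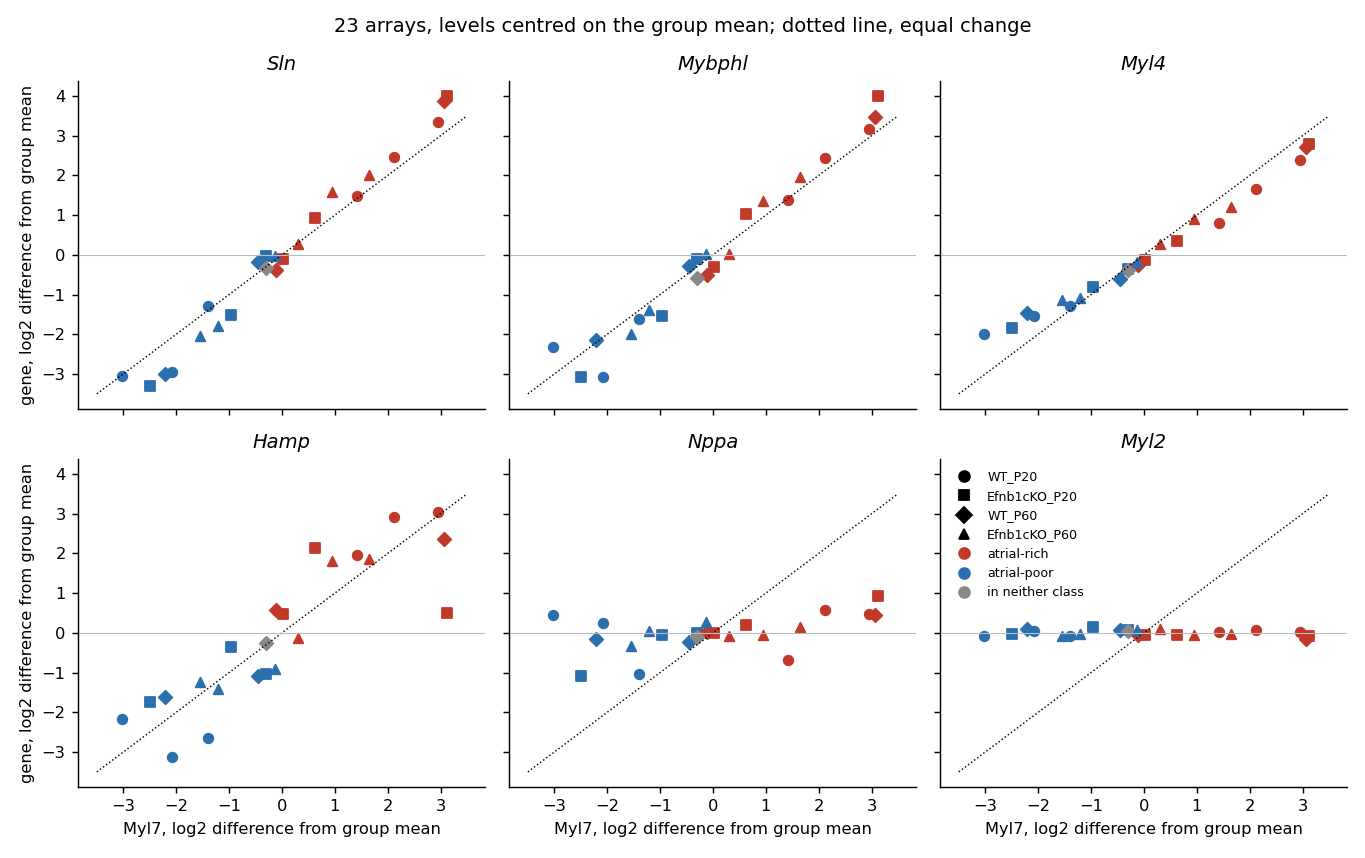
Log2 level of 6 genes (vertical) against that of Myl7 (horizontal) on 23 arrays, both as differences from the mean of the array's group; symbols give the group, colours the class, and the dotted line an equal change. Sln, Mybphl and Myl4 follow Myl7 along its whole range, Hamp with more scatter, Nppa weakly, and Myl2 lies on a flat line.

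Within single groups the Sln slope was 1.12 in WT_P20, 1.31 in Efnb1cKO_P20, 1.29 in WT_P60 and 1.35 in Efnb1cKO_P60, and within slides 1.31, 1.23 and 1.25. Myl4 gave 0.74 to 0.83 in groups and 0.69 to 0.84 in slides, and Mybphl 1.05 to 1.28 and 0.96 to 1.31. Hamp was less even, at 1.13, 0.46, 0.78 and 1.12 in the 4 groups, with its lowest slope in Efnb1cKO_P20. Nppa lay between 0.04 and 0.34 in groups and between -0.03 and 0.26 in slides. Myl2 stayed between -0.05 and 0.01 in every group and slide. With the slide in the slope fit 18 probes passed, among them Sln, Mybphl, Myl4, Hamp, Sbk3 and Cpne5, while Dkk3 did not (slope 0.28, limma adjusted p = 0.0527). Dkk3 also did not pass without the 2 arrays of highest Myl7 (slope 0.22, adjusted p = 0.109).

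**Figure D4:**
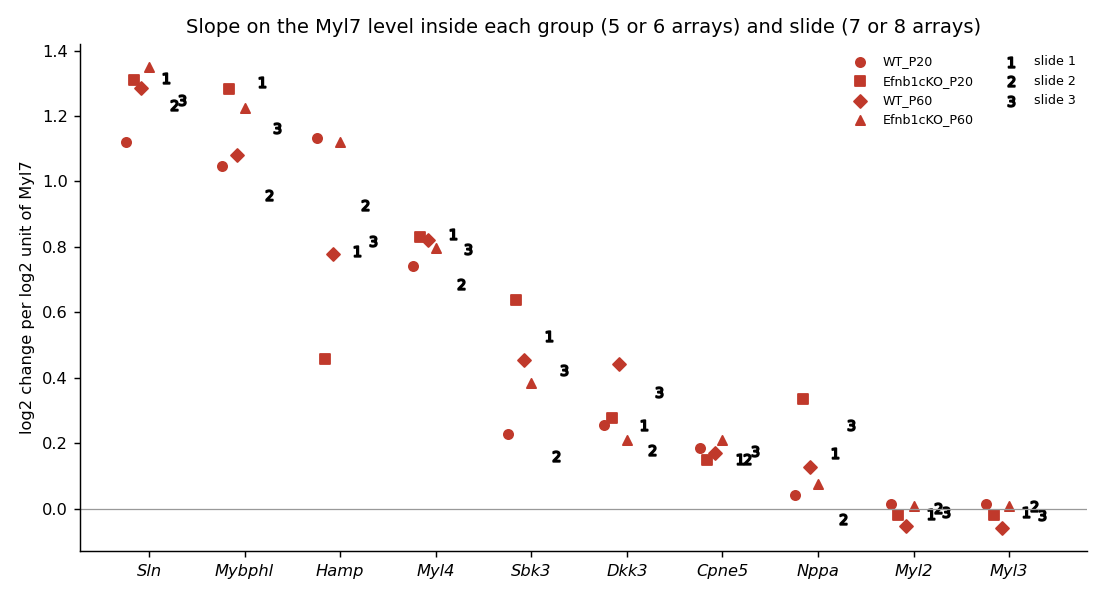
Change in each gene per log2 unit of Myl7 (vertical) inside each group of 5 or 6 arrays (red symbols) and each slide of 7 or 8 arrays (numbers), on levels centred by group. Sln and Myl4 slopes lie close together, Hamp is spread from 0.46 to 1.13 over groups, and Myl2 and Myl3 lie near 0.

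The class difference was not shown to depend on age or genotype. Sln differed between classes by 4.05 (SE 0.832) at P20 and 2.89 (SE 0.911) at P60, Myl4 by 2.62 and 1.86, Mybphl by 3.91 and 2.42, and Hamp by 3.69 and 2.55. In limma, no probe passed at P20, at P60 or for the difference between ages, with 756, 904 and 675 probes at an unadjusted p under 0.05. By genotype, Sln differed by 4.26 in WT and 2.90 in Efnb1cKO mice, Myl4 by 2.84 and 1.80, Mybphl by 3.88 and 2.69, and Hamp by 4.31 and 2.23. The WT value of Hamp includes the 3 poor WT_P20 arrays that were not well above background; in WT_P60, Efnb1cKO_P20 and Efnb1cKO_P60, where every array was, Hamp differed by 2.83, 2.08 and 2.37. Hamp in WT was the single probe that passed (limma adjusted p = 0.00481, 0.0028% of probes). It did not pass under normexp, with the slide in the fit or with the replicate number as a block. None passed in Efnb1cKO or for the difference between genotypes, and 713 and 583 probes had an unadjusted p under 0.05. Myl7 itself, which made the classes, differed by 3.42 at P20 and 2.28 at P60.

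Genotype means of the atrial genes were compared on all 23 arrays, where ranks within a group carry no information. Myl7 averaged 11.44 ± 2.48 (SD, n = 6) in WT_P20, 12.81 ± 1.87 (SD, n = 6) in Efnb1cKO_P20, 12.24 ± 1.91 (SD, n = 5) in WT_P60 and 12.39 ± 1.23 (SD, n = 6) in Efnb1cKO_P60. Efnb1cKO mice exceeded WT mice by 1.37 among the younger animals (two-sided exact test over 924 splits, p = 0.312) and by 0.15 among the older (exact p = 0.885 over 462 splits), less than the SD within groups. Sln differed by 1.36 (exact p = 0.394) and 0.16 (exact p = 0.887). Nppa differed by 0.76 (exact p = 0.0931) and, at P60, by 0.48 (exact p = 0.0173), with a limma adjusted p over all probes of 0.714. Of 21 atrial genes, Myl7 among them, 0 passed for genotype in limma at either age, where 0.0252% of probes passed at P20 and 0.599% at P60. At P20, 20 of the 21 were higher in Efnb1cKO mice, with a median of 0.15, and at P60 14 were, with a median of 0.08. The medians over all probes were -0.0016 and -0.0024. Several of the 21 genes vary together on the same arrays, so they are not independent and these counts are a description.

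Age calls among the atrial genes are read against the share of all probes called, which was large. In WT, 11 of the 21 genes passed in limma, 5 higher and 6 lower at P60, where 36.6% of all probes passed, and in Efnb1cKO mice 9 passed, 3 higher and 6 lower, where 39.8% did. Nr2f1 fell by 0.62 in WT (limma adjusted p = 3.09e-05) and by 0.66 in Efnb1cKO mice (adjusted p = 6.96e-06), and Nr2f2 by 0.47 and 0.56. Kcna5 rose by 0.93 (adjusted p = 0.000574) and 0.73 (adjusted p = 0.00284). Myl7, Myl4, Sln, Mybphl and Hamp did not pass in either genotype, with values of 0.80, 0.57, 1.21, 0.96 and 0.32 in WT and -0.42, -0.46, 0.01, -0.23 and 0.13 in Efnb1cKO mice.

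Counts of genotype calls were compared with and without the class in the fit. On the same 22 arrays 10 probes passed for genotype at P20 without and 10 with the class term, and 131 and 127 passed at P60. With the Myl7 level as the covariate on 23 arrays the counts were 18 and 208, against 9 and 214 on 23 arrays without it.

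Marker lists of fat, epicardium and valve had higher values in the rich class, with no gene past the class threshold. In the graded fit 1 adipocyte gene, Retn, passed. Of 9 tested adipocyte genes 6 were higher and 3 lower, with a median of 0.96. The fat-cell hormone Adipoq differed by 0.99 (SE 0.434) and Plin1, a coat protein of lipid droplets, by 0.84 (SE 0.362), while Lep, Lpl and Cidea, named after their values were seen as the 3 lower genes, differed by -0.01, -0.03 and -0.04. Adipoq was well above background on 11 rich and 9 poor arrays. Plin1 was so on 7 and 4, reached the minimum of 5 only with the rich arrays counted, and is a description. The mean level of the list was 6.96 to 9.43 in the rich and 6.09 to 8.94 in the poor class, and the median difference was 1.24 at P20 and 0.47 at P60. The P60 value joins unlike groups: Adipoq was at 1.41 in WT_P60 and -0.15 in Efnb1cKO_P60, against 1.29 in WT_P20 and 1.55 in Efnb1cKO_P20. Of 10 epicardial and mesothelial genes 9 were higher, with a median of 0.25, Wt1 at -0.03 (SE 0.094), and list means of 6.33 to 8.05 against 5.63 to 6.71. Upk3b, at 1.07 (SE 0.56), was well above background on 7 rich and 3 poor arrays, so it reached the minimum of 5 only with the rich arrays counted and its value is a description. All 10 valve and chordae genes were higher, with a median of 0.31, Comp at 0.49 (SE 0.18) and Fmod at 0.49 (SE 0.2). The list means were 7.08 to 8.14 against 6.57 to 7.80. The Tnmd probe of this list was dim, at 1.01 to 4.02 in the rich and 1.08 to 3.81 in the poor class. Its part in the count is a description. By genotype Comp was at 0.94 in WT and 0.12 in Efnb1cKO mice, and Fmod at 1.02 and 0.06, with a limma adjusted p of 1 for the difference between genotypes in both. The list means of the classes overlapped in all 3 lists.

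With the adipocyte level as a covariate, chosen after the data were seen, no probe passed for the class (limma; 746 at an unadjusted p under 0.05), and the differences were 2.96 for Hamp, 2.56 for Sln, 1.62 for Myl4 and 0.46 for Cpne5. In the slope fit 6 probes passed, all among the 26, with Sln at 1.26 (limma adjusted p = 5.65e-11), Mybphl at 1.20, Myl4 at 0.77, Hamp at 1.11 (adjusted p = 0.00717) and Fgf12 at 0.72. Sbk3, Dkk3, Cpne5 and Tmem163 did not pass there (adjusted p = 0.87, 0.951, 0.562 and 0.0908). The part of these tissues in the other differences was not tested.

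Lists of other cell types had medians near 0. The median difference was -0.01 over 10 endothelial genes, 0.01 over 10 smooth muscle genes, -0.0007 over 10 fibroblast genes, 0.08 over 10 genes of ganglia and Schwann cells, 0.04 over 7 skeletal muscle genes, 0.04 over 7 erythroid genes and -0.003 over 10 immune genes, with no call in any list. In the vessel wall and endocardium, Npr3 differed by 0.14, Nfatc1 by -0.01, and the contractile genes Myh11 and Acta2 by 0.02 and 0.00. The fibroblast genes Pdgfra and Col1a1 differed by -0.05 and -0.001, the neural genes Phox2a and Th by 0.11 and -0.004, and the leukocyte genes Ptprc and Cd68 by -0.07 and 0.12. Fast skeletal Myh4 and Tnnt3 differed by -0.07 and 0.04, the globins Hba-a1 and Hbb-b1 by -0.01 and 0.09, and the lymphoid genes Dntt and Cd8b1, the 2 tested of 8 thymus and lung genes, by -0.04 and -0.01. The clock list, 14 genes tested, had 11 genes higher and 3 lower, a median of 0.15 and no call, with Arntl at -0.44 (SE 0.415) and Clock at -0.12 (SE 0.112). The highest were Ciart at 0.64 (SE 0.602) and Dbp at 0.60 (SE 0.46), named after their values were seen. These values came mainly from WT_P60, with 2 rich and 2 poor arrays, where Ciart differed by 3.74, Dbp by 2.15 and Arntl by -1.60, while in the other 3 groups Ciart lay between -0.33 and 0.34, Dbp between 0.04 and 0.57 and Arntl between -0.40 and -0.02. With the Arntl level in the fit Hamp and Cpne5 passed, at 3.04 and 0.57 (limma adjusted p = 0.0196 for both).

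**Figure D5:**
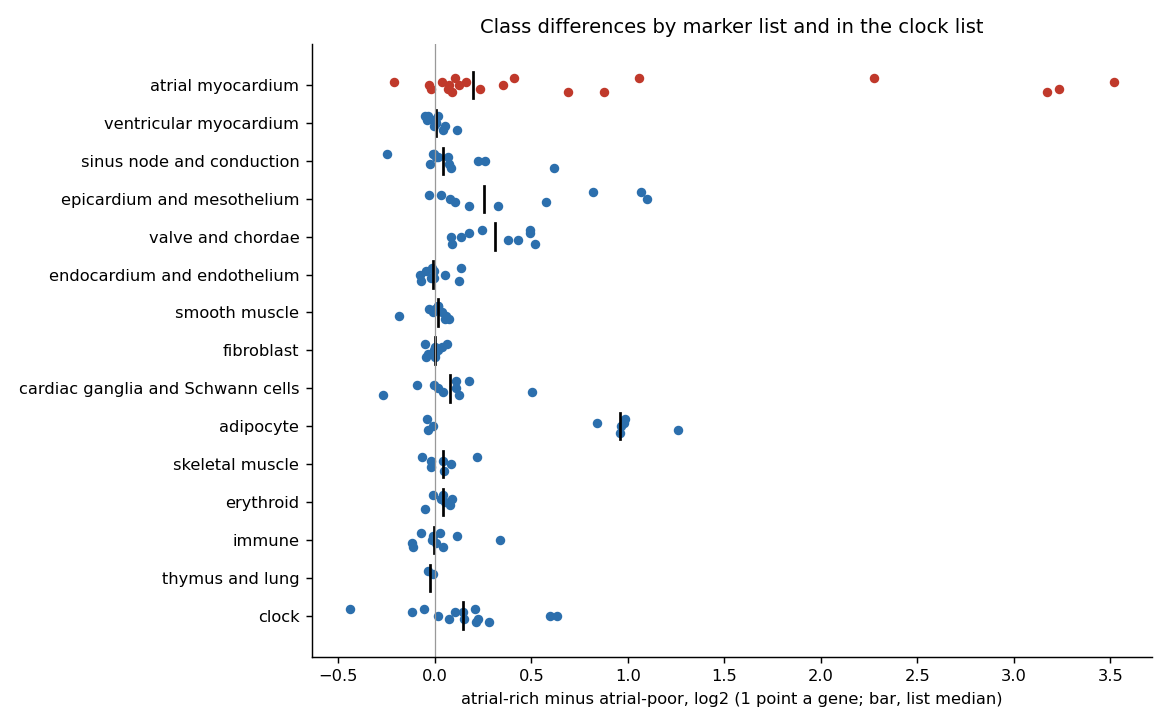
Rich-minus-poor log2 difference of each tested gene (points) in 14 marker lists and the clock list, with a bar at the list median and the atrial list in red. Ventricular, endothelial, smooth muscle and fibroblast genes cluster at 0, the adipocyte median is 0.96, and 4 atrial genes lie above 2.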

How the data were processed

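Total RNA of 23 left ventricles was hybridised to one-colour Agilent arrays. Per the file headers, the deposited intensity (processed signal) came from Feature Extraction 10.10.1.1, background-subtracted and detrended within each array, with surrogate values for dim spots. Probe coordinates are on mm9. The authors' deposited table of log2 values, whose normalisation is not given in the sources used here, served as an alternative.

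Without control and outlier spots, signals were divided by the 75th percentile of their array before the log2 was taken. Of 56605 probes, 35718 rose well above background on 5 or more of the 23 arrays and were tested with limma 3.58.1 (R 4.3.3), with group and class as terms (17 residual degrees of freedom), Benjamini-Hochberg adjustment over all probes and a threshold of 0.05. Myl7 was left out of counts. Lists used each gene's brightest tested probe, and 242 of 268 listed genes were tested. Named were all atrial list genes, list genes past the threshold, the 10 largest such differences each way, and otherwise the first 2 tested genes of a list. Values of 2 genes that this rule names are not reported here. Members, lists and tests were chosen with earlier results of these data known. On simulated data 99 of 100 shifts of 1 and 98 of 100 shifts of 2 were recovered, with 12 false calls among 209. The shifted probes were drawn at random, with independent normal noise at each probe's own SD. Recovery therefore says little of widely spread probes, such as Sln, Mybphl and Myl4 with SDs within groups of 2.38, 2.22 and 1.52. Their differences of 3.52, 3.23 and 2.27 did not pass. The number of arrays limits the precision. Each array was 1 mouse, and no pair of arrays shared more than 0.0349% of spot signals. Alternatives covered background correction, normalisation, filters, slide, replicate number, ranking gene, class width and single arrays.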

Additional observations from a re-analysis of the deposited data

Results flagged for a closer look

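Within each of the 4 groups, 22 genes (Myl7, the atrial list and Cpne5) were screened for an array whose gap to its neighbour was a large share of the group's range. Of 88 such sets 10 stood out. Chance flags about 1 in 20 of independent sets, but these share arrays and several of the genes vary together, so the count has no chance value. Only 4 arrays were involved, and WT_P60 replicate 6 and Efnb1cKO_P20 replicate 1, the arrays of highest Myl7 (15.31 and 15.93), held 8 of the 10.

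In WT_P60 replicate 6, Myl4 read 15.84 where the next array of its group read 12.86, and Sbk3 read 11.91, Stard10 8.85, Kcnj5 12.43 and Nr2f2 8.99, each the highest of its group. In Efnb1cKO_P20 replicate 1, Sbk3 read 12.59, Stard10 9.11 and Gja5 8.40, again the highest. Sbk2 was highest, at 5.80, in Efnb1cKO_P60 replicate 4, a rich array, and Kcna5 was highest, at 9.84, in Efnb1cKO_P20 replicate 6, a poor array. Without the 2 arrays of highest Myl7, chosen after the data were seen, 1 probe (Hamp, adjusted p = 0.0405) passed for the class in limma and 11 for the slope, all 11 among the 26.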

How the results depend on the processing

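The class count of 2 probes was 5 under normexp and 6 in the authors' values, the original 2 included in each. It was 1 when probes had to be above background on all 23 arrays, which leaves out Hamp, 1 without the 2 arrays of highest Myl7, and 0 with the slide as a block, with the adipocyte covariate, when Sln ranked the arrays, or with the top 2 and bottom 2 arrays of each group (fewer samples). Ranked by Nppa it was 2, both lower and neither of the original 2. As a slope over 23 arrays it was 26. Leaving out 1 array gave 2 to 7, with 7 without WT_P60 replicate 1 or Efnb1cKO_P20 replicate 5 and 6 without Efnb1cKO_P60 replicate 3. Hamp and Cpne5 kept their call in all 22 such fits. The P20 count ranged from 0 to 2 and the WT count from 1 to 4 with 1 array left out. The WT count of 1 was 0 under normexp and with the slide as a block, and 2 under quantile normalisation. The slope count of 26 was 41 with array weights, 12 with probes above background on all arrays, 6 with the adipocyte covariate and 11 without the 2 arrays of highest Myl7. It was 18 to 31 with 1 array left out. The genotype counts of 10 and 127 with the class on 22 arrays were 18 and 208 with the Myl7 slope on 23 arrays. Without either term they were 10 and 131 on 22 arrays and 9 and 214 on 23 arrays. The P60 count thus differed between the 2 sets of arrays without any such term.

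Replicate numbers were not taken as pairing the arrays, because not every same-numbered pair correlated above 0.1. That rule cannot exclude that arrays of some numbers belong together. Over 33 same-numbered pairs the correlation of deviations ran from -0.21 to 0.39, and 11 of 23 arrays correlated best with their own number, a hint from the data and not from the design. The 4 arrays numbered 4 correlated at 0.13 to 0.32. With the replicate number as a block, the class count was 0 (1113 at an unadjusted p under 0.05 in limma; Hamp 3.20, adjusted p = 0.172; Cpne5 0.60, adjusted p = 0.176), the WT count 0 and the slope count 18.

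Direction turned only for small differences that never passed. Kcnk3 was 0.0044 with the slide block, 0.0088 with the top 2 and bottom 2 arrays, 0.0472 ranked by Sln, 0.0987 ranked by Nppa and -0.0421 to 0.0057 with 1 array left out. Nr2f1 was 0.0039 with Arntl as a covariate and -0.0672 to 0.0035 with 1 array left out. Ranked by Nppa, Nr2f2 was -0.0309, Tbx5 -0.0668 and Cacna1d -0.0699, and Kcnj3 was -0.0166 with the adipocyte covariate. The cause of these changes was not tested. A mean over several Myl7 probes was not run because the array has 1. Signal near background limits Hamp and Mybphl in the poor class.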
